A study of Mus musculus with 16 samples.

Results

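The genes described here are 10 oncofetal liver genes, Afp, Gpc3, H19, Igf2, Dlk1, Meg3, Scd2, Igf2bp3, Golm1 and Ly6d, measured in mouse liver after a carcinogen. They were given as a list of names, chosen with earlier results of these data known. Every array probe whose transcript record belongs to one of them was taken. Of the 10 genes, 9 had a probe, which gave 16 of the 41174 probes on the array, and 8 genes with 13 probes were bright enough to test, of 13306 genes tested in all. No probe was matched to H19, so H19 was not analysed here.

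All 16 mice were male and were given diethylnitrosamine (DEN), which initiates liver tumours, at the age of 5 weeks in a dose of 90 mg/kg. They were wild type (WT, C57BL/6J) or Gadd45b null (KO, a stock named for C57BL/6 and 129S6), Gadd45b being a stress-response gene. The WT DEN and KO DEN groups drank plain water, and the WT DEN + PB and KO DEN + PB groups drank phenobarbital (PB), which activates the nuclear receptor CAR and promotes liver tumours in mice, at 0.5 g/l from 7 weeks. Liver outside tumours was taken at 57 weeks, and each of the 4 groups had 4 arrays of 1 colour, 1 mouse each. No group lacked DEN, so none of the values is that of an untreated liver. The KO stock carries its mutation in every cell, and whether the strain background differed between genotypes cannot be told apart from the mutation here. None of the 10 genes lies on chromosome 10, where Gadd45b lies.

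Oncofetal genes are strongly expressed in the fetal liver, fall silent or nearly so after birth, and can be expressed again in regenerating or cancerous liver. Afp encodes alpha-fetoprotein, the serum protein used as a marker of liver cancer, and Gpc3 encodes a cell-surface proteoglycan used in the same way. Igf2 (a fetal growth factor) with H19, and Dlk1 (a transmembrane protein of the Notch ligand family) with Meg3 (a long non-coding RNA), are pairs of imprinted neighbours, in which the paternal allele expresses the protein-coding gene and the maternal allele the non-coding RNA. Scd2 encodes a desaturase that makes monounsaturated fatty acids, Igf2bp3 a fetal RNA-binding protein, Golm1 a Golgi membrane protein that biliary cells and diseased hepatocytes make, and Ly6d a lipid-anchored surface protein.

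A signal is given on a scale on which the 75th percentile of the probes on each array is 100, and a log2 change is a difference of group means of the log2 signal with its standard error (SE). A probe is called well above background where the scanner software marked at least as many of its spots so as not. A gene was called changed at a limma p, adjusted over all 24457 probes tested, under 0.05 and a change of at least 1.5-fold, read from its brightest probe. The two-sided exact permutation test of 4 arrays against 4 has 70 assignments and no p under 0.0286. The 75th percentile lay between 137 and 294 in the units of the scanner, 58.3% to 67.7% of spots were well above background, and no spot was saturated. As a check of the genotypes, 8 of 8 WT arrays and 0 of 8 KO arrays had a Gadd45b signal well above background. The 6 hepatocyte markers with a probe were well above background on every array. The tissue is a mixture of cells, in which fewer cells of a type and less RNA per cell cannot be told apart.

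Counted over the 8 genes tested, PB in WT called 1 oncofetal gene, Meg3, which was higher, where 0.737% of all genes tested were called (0.654% higher and 0.0827% lower). PB in KO called 2, Meg3 higher and Golm1 lower, where 2.13% of all genes were called (1.26% higher and 0.872% lower). KO minus WT called 1 without PB, Meg3, which was higher in KO, against 2.76% of all genes (1.02% higher and 1.74% lower). With PB it called 3, Meg3 higher and Scd2 and Golm1 lower in KO, against 7.61% of all genes (1.76% higher and 5.85% lower). For the difference of the PB effects limma called 0 of the 8 genes, and 0% of all genes, with Scd2 and Golm1 at an unadjusted p under 0.05, and the fit without moderation also called 0.

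With PB in WT, all 8 log2 changes were positive, with a median of 0.86 against -0.02 over all genes. Those of Gpc3 and Golm1 were close to 0 and turned negative under normexp background correction. That alternative adds 50 to each signal, which by itself narrows the changes of dim probes. Dlk1 was tested only through its groups with PB, so the filter favoured its positive changes and its lack of overlap in KO. With PB in KO 6 of 8 were positive, with a median of 0.58 against 0.01. The arrays of the groups compared did not overlap for 3 of the 8 genes with PB in WT (Meg3, Igf2 and Scd2) and for 3 with PB in KO (Meg3, Dlk1 and Golm1), where 5.16% and 8.6% of all genes did not. Between genotypes they did not overlap for 2 without PB (Meg3 and Igf2) and for 3 with PB (Meg3, Scd2 and Golm1), where 11% and 17.3% of all genes did not. Because the list was chosen with earlier results of these data known, the shares and medians of all genes are given for scale. They do not test whether oncofetal genes as a set differ from other genes.

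**Figure D1:**
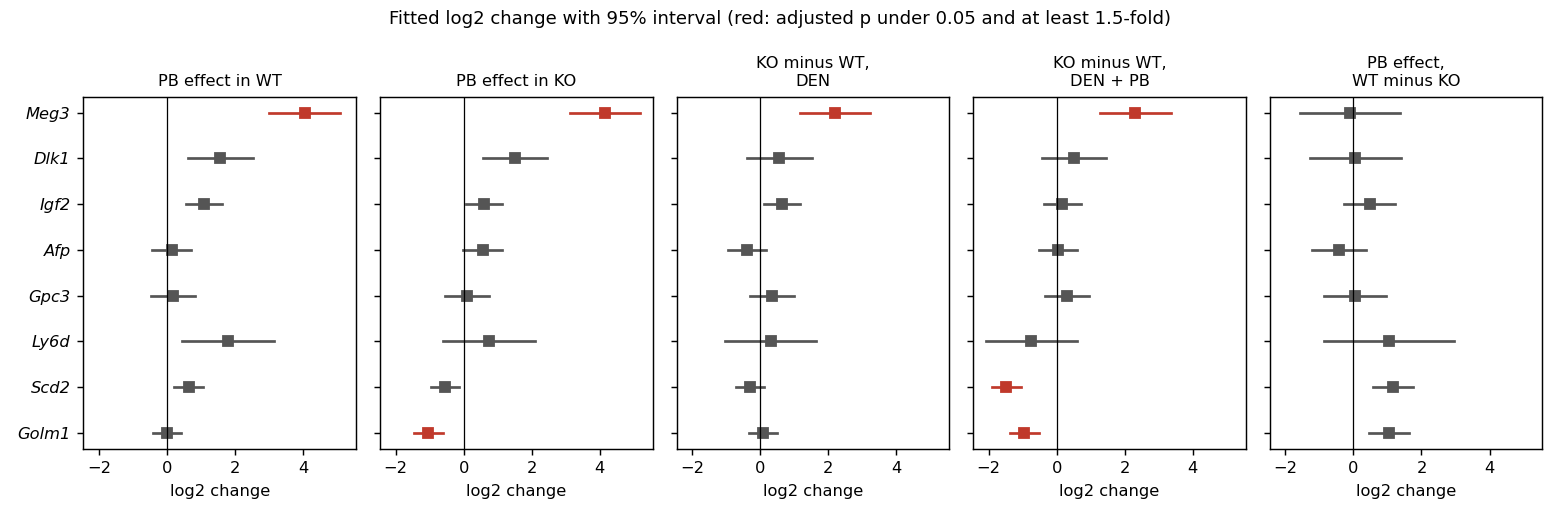
Fitted log2 change with its 95% interval for the 8 tested oncofetal genes, in 5 panels for the PB effect in each genotype, KO minus WT at each treatment and the difference of the PB effects. Red marks changes with an adjusted p under 0.05 and at least 1.5-fold: Meg3 in the first 4 panels, Golm1 for PB in KO, and Scd2 and Golm1 for KO minus WT under DEN + PB.

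Meg3 was the oncofetal gene that rose with PB in both genotypes. The starts of its 2 annotated transcripts are shown because it is the gene with the most calls of the 10. The windows below come from RefSeq (GRCm38.p6, plus strand, at chr12:109540746-109541045 and chr12:109545148-109545447) and run from 250 bases before each start to 50 bases after it. Capitals mark the motifs searched for, on both strands.

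Meg3 upstream start: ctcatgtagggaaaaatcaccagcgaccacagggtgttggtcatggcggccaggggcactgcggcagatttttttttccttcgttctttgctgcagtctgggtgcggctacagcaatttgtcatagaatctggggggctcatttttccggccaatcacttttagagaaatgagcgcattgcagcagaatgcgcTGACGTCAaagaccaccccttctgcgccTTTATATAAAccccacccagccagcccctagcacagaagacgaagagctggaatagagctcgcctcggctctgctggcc

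Meg3 downstream start: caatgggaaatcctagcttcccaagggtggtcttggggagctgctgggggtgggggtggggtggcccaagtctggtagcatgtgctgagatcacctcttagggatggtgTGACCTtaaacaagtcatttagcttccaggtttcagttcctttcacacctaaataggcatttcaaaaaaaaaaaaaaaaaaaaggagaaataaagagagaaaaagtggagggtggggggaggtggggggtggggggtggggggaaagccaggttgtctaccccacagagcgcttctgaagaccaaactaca

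The motifs searched for were TGACGTCA (the cAMP response element), TATAAA (the TATA box), AGGTCA (a nuclear receptor motif) together with AGTTCA (a variant of it) and GGGTCA (another variant), and 2 of these hexamers in the same direction with 4 bases between them, the arrangement that CAR is known to bind. The upstream window held TGACGTCA, a palindrome, from base -57, and TATAAA on the plus strand from base -25 and on the minus strand from base -29, which overlap. Of 32851 windows of the same length at all annotated starts, 1.79% held TGACGTCA and 13.6% held TATAAA. The downstream window held AGGTCA on the minus strand from base -141, as did 16.3% of all windows. The repeat with 4 bases between the hexamers was in 0.0639% of all windows and in none of the windows of the oncofetal genes. The upstream window held 13 CG pairs and the downstream one 1, and 62.1% and 5.43% of all windows held fewer. A match of letters is a description of the window and not a binding site.

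In WT mice the brightest Meg3 probe gave signals of 49.9, 12.5, 13.7 and 21.8 with DEN alone and of 320, 663, 299 and 220 with DEN + PB. In KO mice the signals were 51.1, 154, 141 and 75.5 with DEN alone and 1241, 2056, 3323 and 982 with DEN + PB. Every PB array lay above every array of the same genotype without PB, and every KO array lay above every WT array of the same treatment, and WT DEN + PB lay above KO DEN throughout, so that no groups overlapped. The mean log2 signal relative to the 75th percentile of WT mice was -2.27 ± 0.91 with DEN alone and 1.78 ± 0.67 with DEN + PB, and that of KO mice was -0.07 ± 0.76 and 4.09 ± 0.78 (SD, n = 4).

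In WT mice Meg3 was 16.5-fold higher with PB than without (log2 change 4.05, SE 0.49, limma adjusted p = 0.000207). In KO mice it was 17.8-fold higher (4.15, SE 0.49, adjusted p = 0.000164). The exact permutation p was 0.0286 in each, the smallest possible. The difference between these PB effects of the brightest probe, WT minus KO, was -0.10 (SE 0.69, 95% interval -1.57 to 1.36). An unequal response within that interval was not excluded with 4 arrays a group. Within the 3 slides that held both groups the PB effect was 3.73 to 4.54 in WT and 2.68 to 5.33 in KO. Meg3 stayed called in both genotypes under every alternative processing and without any 1 array. Its size depended on the background correction, since under normexp the PB effect was 2.41 in WT and 3.80 in KO and their difference -1.39, which was not called.

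By its brightest probe, Meg3 was also higher in KO than in WT liver at each treatment. Under DEN + PB the KO signal was 4.94-fold that of WT (log2 change 2.30, SE 0.49, limma adjusted p = 0.00904), and the call stood under every alternative and without any 1 array. The difference was positive within all 4 slides, from 0.57 to 3.47. Under DEN alone the KO signal was 4.60-fold that of WT (2.20, SE 0.49, adjusted p = 0.0242), and 1.62 and 1.90 within the 2 slides that held both groups. That call was less firm. It was lost under 5 of 13 alternatives. Among them were normexp background correction (1.01, adjusted p = 0.440), slide as a fixed block (1.74, adjusted p = 0.0953) and the mean over the Meg3 probes (0.97, adjusted p = 0.182). It was also lost without WT DEN 2, WT DEN 3, KO DEN 2, KO DEN 3 or KO DEN 4, when the limma adjusted p was between 0.0501 and 0.0842.

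Meg3 had 5 probes, 2 designed on 1 transcript record and 3 on another. The second probe of the first record read 15.3, 5.55, 5.34 and 7.53 in WT mice with DEN alone and 136, 231, 113 and 60.3 with DEN + PB. In KO mice it read 19.7, 45.3, 44.3 and 37.3 and, with PB, 379, 809, 1118 and 375. It was called in the same 4 comparisons as the brightest probe, with log2 changes of 3.98 and 4.10 for PB and of 2.19 and 2.31 for KO minus WT. Over the 16 arrays, which share the groups, its log2 signal and that of the brightest probe had a Pearson r of 0.996.

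The 3 probes of the other record were dim. They were tested only through groups with PB, the last of them only through KO DEN + PB. That filter favoured their calls for PB, which add no separate support to those of the brighter probes. All of them were called higher with PB in KO mice, where they were at least 8.90-fold, at least 7.51-fold and 15.5-fold higher, the first pair being bounds because both were dim on every KO DEN array. The value of the last rests on measured signals of which 1 of the 4 from KO DEN was well above background, so it is no firmer than the bounds. In WT mice the PB effect was called for 1 of the 3 (limma adjusted p = 0.0303), for which no WT DEN array was well above background and the bound was at least 1.498-fold. For the first pair it was 2.25 and 1.16 (limma adjusted p = 0.0897 and 0.815). The difference of the PB effects, WT minus KO, was -1.51, -2.82 and -1.05 for the 3 probes. None was called (limma adjusted p = 0.877, 0.541 and 0.965), and the second had an unadjusted limma p of 0.00926. These differences rest on dim signals without PB. Without PB these 3 probes were well above background on 1, 3 and 0 of 4 WT arrays and on 0, 0 and 1 of 4 KO arrays, too few to measure a difference between genotypes, and none was called. With PB, KO minus WT was 1.83 and 1.82 for the first pair (limma adjusted p = 0.0547 and 0.119), neither called. For the last it was 2.20 and called (adjusted p = 0.0348), a result that the filter also favoured.

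**Figure D2:**
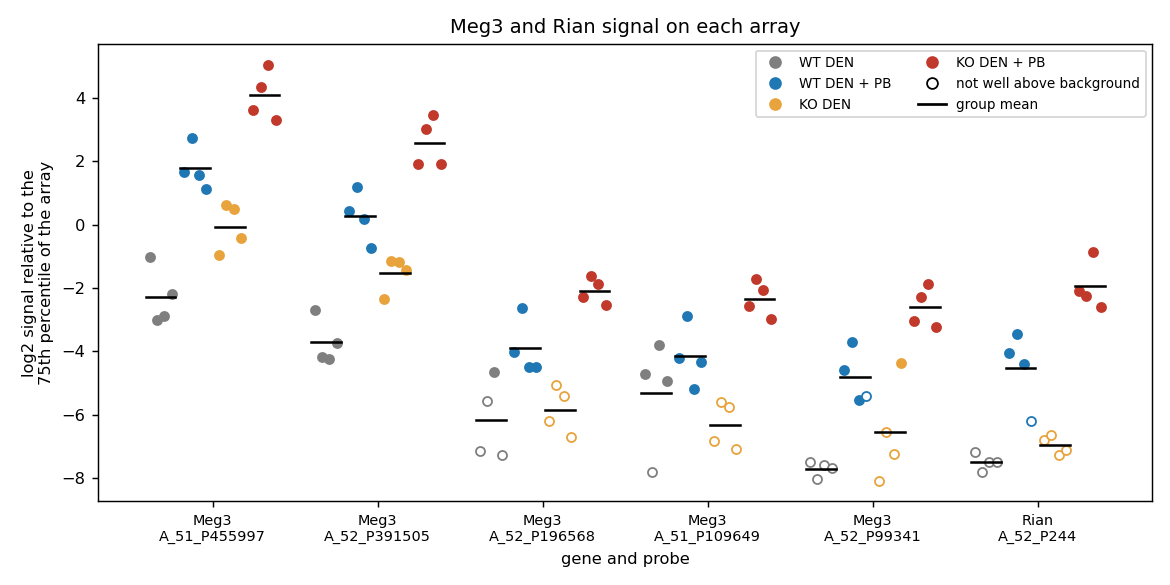
Log2 signal of the 5 Meg3 probes and the Rian probe on each of the 16 arrays, relative to the 75th percentile of the array, with the probe on the x axis and the group as colour. Open points were not well above background and black bars are group means of 4 arrays. For the first pair of probes the order is WT DEN, KO DEN, WT DEN + PB, KO DEN + PB from low to high, with no overlap at the brightest probe.

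The chromosome 12 domain between Dlk1 and Dio3 holds further maternally expressed non-coding RNAs downstream of Meg3, among them Rian. Of 103 genes annotated in that interval 5 had a probe and 4 were tested. No array without PB, of either genotype, had a Rian signal well above background, with signals of 0.45 to 0.68 in WT DEN and 0.65 to 1.01 in KO DEN. With PB its signals were 6.03, 9.22, 4.73 and 1.36 in WT, the last not well above background, and 23.7, 20.9, 55.0 and 16.7 in KO. The Rian probe was tested only because all 4 KO DEN + PB arrays read it well above background. That filter favoured its PB effect in KO and its difference from WT under PB. Rian was at least 1.82-fold higher with PB in WT (limma adjusted p = 0.00250) and at least 9.81-fold higher in KO (adjusted p = 1.09e-05). Under DEN + PB it was 5.98-fold higher in KO than in WT (log2 change 2.58, SE 0.46, adjusted p = 0.00283). The difference of the PB effects between genotypes was not called (adjusted p = 0.489), and all 3 Rian calls were lost under normexp background correction, which lowered the PB effect to 0.04 in WT and 1.06 in KO. Of all 13281 genes compared, Rian had the log2 pattern most like that of Meg3 over the 16 arrays (Pearson r = 0.94, and 0.60 once the group means were removed). Next came Akr1b7, an aldo-keto reductase gene (0.94, and 0.15 within groups).

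Dio3, the deiodinase gene at the far end of the domain, was not called, with log2 changes for PB of -0.32 (SE 0.52) in WT and -0.57 (SE 0.52) in KO. It was dim, well above background on 4 arrays of WT DEN, 3 of WT DEN + PB, 3 of KO DEN and 1 of KO DEN + PB. Its probe was thus tested only through WT DEN, which favours a fall with PB in WT.

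Dlk1, the protein-coding neighbour of Meg3, was at the edge of detection without PB and above it with PB, and did not pass the test. Its signals were 1.52, 1.22, 2.93 and 0.91 in WT DEN, with 1 of 4 arrays well above background, and 7.73, 4.02, 2.33 and 5.26 in WT DEN + PB, with all 4 above it. In KO they were 1.34, 4.70, 1.22 and 3.07 with DEN, again with 1 of 4 above background, and 5.09, 5.64, 6.32 and 8.57 with DEN + PB, all 4 above it. The groups with and without PB overlapped by 1 array in WT and did not overlap in KO. The probe was tested only because its arrays with PB were well above background, which favours a rise with PB. The log2 change with PB was 1.57 (SE 0.45, limma adjusted p = 0.197, exact permutation p = 0.0571) in WT and 1.51 (SE 0.45, adjusted p = 0.113, exact permutation p = 0.0286) in KO. It was called in KO when KO DEN 2, the highest array of its group, was left out (1.87, adjusted p = 0.0480). Within the slides that held both groups the change was positive in 3 of 3 in either genotype. Under normexp background correction it was 0.01 in WT and 0.40 in KO. KO minus WT was 0.56 (SE 0.45) under DEN and 0.51 (SE 0.45) under DEN + PB, neither called.

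Igf2 was next. Its brightest probe, averaged over 10 spots, gave 7.52, 7.32, 7.45 and 6.85 in WT DEN and 15.7, 11.99, 11.01 and 27.1 in WT DEN + PB. In KO it gave 12.9, 13.2, 12.1 and 8.27 with DEN and 18.3, 12.2, 20.1 and 19.9 with DEN + PB. The WT DEN arrays were close together and below every other array. With PB, Igf2 was 2.11-fold higher in WT (log2 change 1.08, SE 0.25), which missed the threshold (limma adjusted p = 0.0689, exact permutation p = 0.0286) and passed it when WT DEN + PB 3, the lowest array of its group, was left out (1.24, adjusted p = 0.0440). Under normexp it was 0.23. In KO the change was 0.60 (SE 0.25, adjusted p = 0.326), and 0.34 under normexp, and the difference between genotypes was 0.48 (SE 0.35, 95% interval -0.27 to 1.23, adjusted p = 0.955). KO minus WT was 0.65 under DEN (SE 0.25, adjusted p = 0.156, exact permutation p = 0.0286) and 0.17 under DEN + PB (SE 0.25). The second Igf2 probe was well above background on 10 of 16 arrays and was called in no comparison. It gave PB effects of 0.69 (SE 0.34) in WT and 0.89 (SE 0.34) in KO, and its KO minus WT change under DEN had the opposite sign (-0.30, SE 0.34).

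The classical serum and tissue markers of liver cancer, Afp and Gpc3, were detected on all arrays and were called in no comparison. In WT, Afp gave signals of 54.3, 61.0, 51.3 and 31.4 with DEN alone and 35.2, 54.3, 57.4 and 71.3 with DEN + PB. In KO it gave 26.9, 45.2, 36.0 and 41.8, and with PB 71.7, 46.0, 67.4 and 38.8. All groups overlapped. The PB effect on Afp was 0.14 in WT (95% interval -0.43 to 0.70) and 0.56 in KO (-0.01 to 1.13, limma adjusted p = 0.420). Gpc3 was dim, at 4.90, 7.45, 3.45 and 5.87 in WT mice with DEN alone and 6.45, 5.02, 5.79 and 6.20 with DEN + PB. In KO mice it was at 7.96, 6.40, 3.99 and 9.79, and with PB at 8.23, 4.52, 6.20 and 11.6, and again all groups overlapped. Its PB effect was 0.16 in WT (95% interval -0.48 to 0.81) and 0.11 in KO (-0.54 to 0.75), so changes of either sign within these intervals were not excluded with 4 arrays a group. KO minus WT was between -0.39 and 0.36 for both genes and treatments. Igf2bp3 had 3 probes, of which 1 was well above background on 1 array, WT DEN 3, and the other two on none, so it could not be tested.

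Of 16 genes listed as regulators of Afp or H19, relatives of Zhx2 among them, 15 were tested and 0 were called in any comparison by limma. At an unadjusted limma p under 0.05 were 0 for PB in WT, 0 for PB in KO, 0 for their difference, 3 for KO minus WT without PB and 4 with PB. Of all genes 8.3%, 13.3%, 6.62%, 18.2% and 23.4% were at such a p. Zhx2, which represses Afp and H19 in adult liver, changed by 0.36 (SE 0.50) with PB in WT and by -0.65 (SE 0.50) in KO. It was dim, well above background on 3 of 4 arrays in WT DEN and in KO DEN + PB and on all 4 in the other groups.

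Ly6d was well above background on all arrays and varied widely between mice of a group. Its WT signals were 155, 52.9, 176 and 63.3 with DEN alone and 240, 210, 145 and 1776 with DEN + PB. Its KO signals were 74.7, 169, 102 and 164, and with PB 340, 103, 208 and 228. The array WT DEN + PB 4 stood far above the rest, and the groups otherwise overlapped. The PB effect in WT was 1.79 (SE 0.64, limma adjusted p = 0.400) and fell to 0.99 (adjusted p = 0.774) without that array. The same array had the highest Igf2 signal of its group and a summed signal of 8 cell cycle markers of 281, against 116 to 175 on the other arrays of the group. The array with the highest such sum was KO DEN 4, at 649, where the Ly6d signal was 164. The part of cycling cells in the Ly6d value was not tested.

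**Figure D3:**
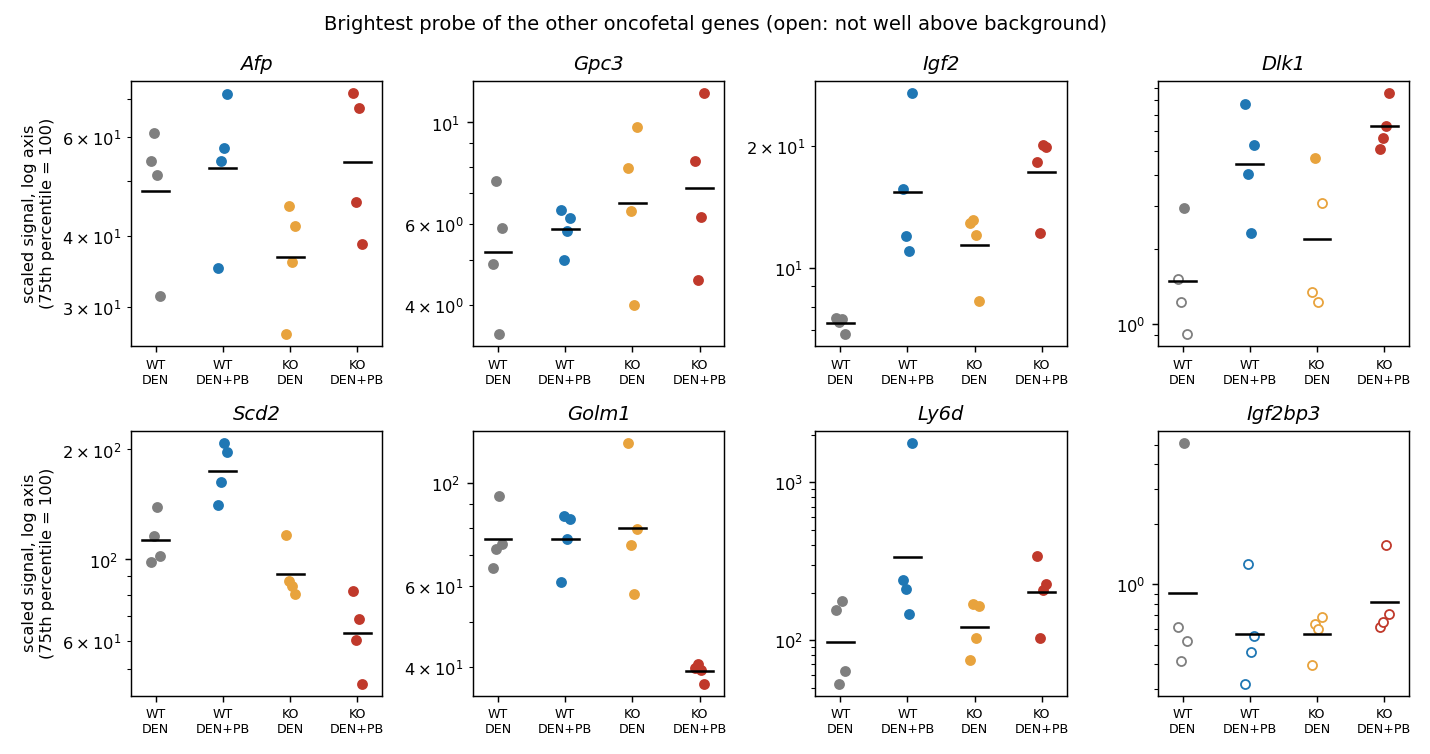
Scaled signal of the brightest probe of 8 oncofetal genes on each array, on a log axis whose range differs by gene, by group on the x axis. Bars are geometric means of 4 arrays and open points were not well above background. Scd2 is higher in WT DEN + PB than in KO DEN + PB with no overlap, the 4 KO DEN + PB arrays of Golm1 lie between 36.7 and 40.5, and one WT DEN + PB array of Ly6d reaches 1776.

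Scd2 and Golm1 were the oncofetal genes that were lower in KO than in WT liver under PB. Scd2 gave signals of 98.6, 116, 139 and 102 in WT DEN and 141, 163, 209 and 196 in WT DEN + PB. In KO it gave 116, 87.3, 84.4 and 80.5 with DEN and 82.0, 60.3, 68.6 and 45.7 with DEN + PB. All WT DEN + PB arrays lay above all arrays of the other groups. Under DEN + PB the WT signal was 2.79-fold that of KO (log2 change, KO minus WT, -1.48, SE 0.20, limma adjusted p = 0.000361, exact permutation p = 0.0286), a call that stood under all 13 alternatives and without any 1 array. Within the 4 slides the change was between -1.84 and -1.22. Under DEN alone it was -0.31 (SE 0.20, adjusted p = 0.401).

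The PB effects on Scd2 had opposite signs in the 2 genotypes, 0.63 in WT (SE 0.20, limma adjusted p = 0.260, exact permutation p = 0.0286) and -0.54 in KO (SE 0.20, adjusted p = 0.226, exact permutation p = 0.0571), and neither was called. Their difference was 1.17 (SE 0.28, 95% interval 0.59 to 1.76), with an unadjusted limma p of 0.000631 and an adjusted p of 0.275. Scd1, the desaturase of adult liver and the paralogue of Scd2, was called in no comparison and changed by -0.12 (SE 0.16) between genotypes under DEN + PB.

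In WT, Golm1 gave 65.3, 72.1, 94.1 and 73.8 with DEN alone and 61.0, 85.0, 75.8 and 83.5 with DEN + PB. In KO it gave 122, 73.6, 57.4 and 79.7 with DEN alone and 39.8, 40.5, 39.3 and 36.7 with DEN + PB. The KO DEN + PB arrays lay below all others. With PB it fell in KO mice by 1.04 on the log2 scale (SE 0.20, limma adjusted p = 0.0109, exact permutation p = 0.0286), and in WT mice the change was 0.00 (SE 0.20). The difference of these effects was 1.04 (SE 0.28, 95% interval 0.45 to 1.63), with an unadjusted limma p of 0.00189 and an adjusted p of 0.404. Under DEN + PB it was lower in KO than in WT by 1.94-fold (-0.95, SE 0.20, adjusted p = 0.00784), and under DEN alone KO minus WT was 0.08 (SE 0.20). Both Golm1 calls were lost under normexp background correction (-0.61, adjusted p = 0.593, and -0.58, adjusted p = 0.361), and the PB call in KO also when only the groups compared were fitted (adjusted p = 0.0518).

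Markers of cells other than hepatocytes moved in the same direction as Scd2 and Golm1 between genotypes under PB. Of the markers tested, 4 of 5 biliary, 5 of 8 leukocyte, 3 of 5 B lymphocyte, 3 of 8 stellate and 3 of 8 endothelial genes were called lower in KO DEN + PB than in WT DEN + PB, and 0 of 6 hepatocyte genes were called, with median log2 changes of -1.06, -1.07, -1.28, -0.72, -0.83 and 0.32. Of all genes tested, 5.85% were called lower in that comparison. Of these 18 marker calls 1, that of the leukocyte gene Cd68, stood under normexp background correction. Ptprc, a leukocyte gene, and Col1a2, a stellate gene, were not called without WT DEN + PB 4 or KO DEN + PB 4, nor Ptprc without KO DEN + PB 2 or Col1a2 without KO DEN + PB 1 or KO DEN + PB 3 (limma adjusted p from 0.0521 to 0.0758). Adipocyte, squamous and cell cycle markers had 0 calls there of 5, 4 and 6 tested. The summed biliary signal was 221 to 322 in WT DEN + PB and 169 to 200 in KO DEN + PB, the leukocyte signal 1484 to 2035 and 712 to 896, the stellate signal 2624 to 3465 and 1486 to 2147, and the endothelial signal 3859 to 4576 and 2105 to 2470. Without PB the leukocyte and endothelial sums were likewise lower in KO (882 to 1212 against 1303 to 2957, and 2160 to 3490 against 4059 to 5018), where neither Scd2 nor Golm1 was called. In that comparison, in which Meg3 was higher in KO, 3 of 5 adipocyte markers (Cfd, Cidec and Retn, with a list median of -2.01), 2 leukocyte and 2 endothelial markers were called lower in KO. Of all genes tested, 1.74% were called lower there. Of these 7 marker calls 1, again Cd68, stood under normexp. The Cidec call stood under 4 of 13 alternatives and in 2 of 16 fits without 1 array. That of Retn stood under 7 of 12 and in 14 of 16, and was lost without WT DEN 3 or KO DEN 2. For the endothelial genes Pecam1 and Clec4g it stood under 7 and 8 of 13, and in 7 and 14 of 16. The calls of Cfd, Cd68 and the leukocyte gene Adgre1 stood in 16 of 16. The biliary marker Tff2, the B lymphocyte marker Pax5 and the adipocyte markers Plin1 and Lep were not well above background on any array. The part of these cells in the Scd2 and Golm1 results was not tested. In the comparisons in which Meg3 rose with PB, 2 of 5 biliary markers, Krt19 and Krt7, were called higher in WT and 0 in KO, and of the other lists 1 B lymphocyte marker, Ms4a1, was called, lower with PB in KO. Of all genes, 0.654% were called higher with PB in WT and 0.872% lower with PB in KO. All 3 marker calls were lost under normexp. The Krt7 call failed in 7 of 13 alternatives, and when any 1 of these arrays was left out: WT DEN 1, WT DEN 2, WT DEN + PB 2, WT DEN + PB 3 and WT DEN + PB 4 (limma adjusted p from 0.0652 to 0.0956).

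**Figure D4:**
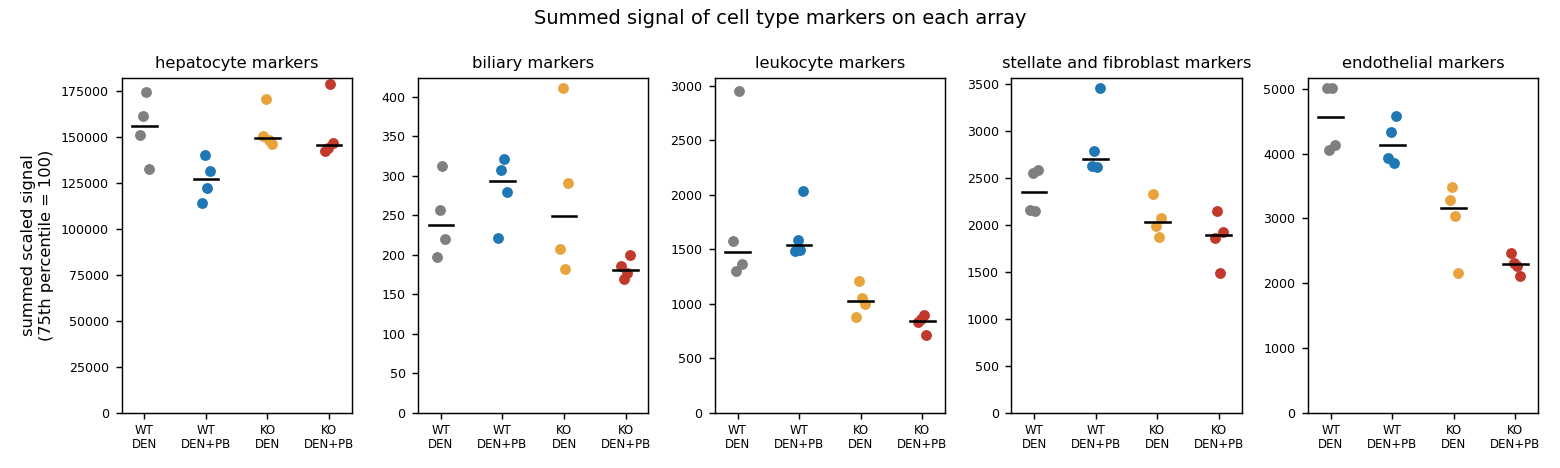
Summed scaled signal of the markers of 5 cell types on each array, by group on the x axis, with a bar at the median of the 4 arrays and each y axis starting at 0. The biliary, leukocyte, stellate and endothelial sums of KO DEN + PB lie below those of WT DEN + PB with no overlap, and the hepatocyte sums lie above them.

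Over the 16 arrays the genes whose log2 signal was most like that of Scd2 were Fkbp1b (Pearson r = 0.95) and Pkia (0.94), and of Golm1 they were Sgce (0.94), an imprinted gene for a sarcoglycan, and Fbxo17 (0.91). For Igf2 they were Thsd1 (0.92) and Nipa1 (0.91), for Ly6d Usp20 (0.91) and 4930599N23Rik (0.87), for Afp Wdr81 (0.85), and for Gpc3 Crebbp and Garem1 (both 0.75). These values describe 16 arrays that share 4 groups and 4 slides.

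Other genes of fetal liver, liver progenitors or liver tumours were mostly not called. Of 28 such genes 22 were tested. With PB in WT 15 of the 22 changes were positive, with a median of 0.42 against -0.02 over all genes. In KO 7 were, with a median of -0.14 against 0.01. At an unadjusted limma p under 0.05 were 8 in WT and 5 in KO, where 8.3% and 13.3% of all genes were. KO minus WT had a median of 0.19 without PB and -0.35 with PB, against -0.04 and 0.03. These values are given for scale and do not test the list. Robo1, a guidance receptor, rose with PB in both genotypes (log2 change 1.28, SE 0.21, limma adjusted p = 0.00415 in WT, and 1.33, SE 0.21, adjusted p = 0.00234 in KO), and both calls were lost under normexp background correction, and that in KO also in the unscaled series table. It was the only gene of the list called for PB in WT, and in KO the one other was Slpi, a secreted protease inhibitor, which fell by 1.45 (SE 0.33, adjusted p = 0.0348). That call was lost under 6 alternatives, normexp background correction among them (limma adjusted p from 0.0542 to 0.109), and without any 1 of KO DEN 2, KO DEN 3, KO DEN 4, KO DEN + PB 2, KO DEN + PB 3 and KO DEN + PB 4 (limma adjusted p from 0.0754 to 0.126). Slpi was also the only one called for KO minus WT under DEN, where it was higher in KO (2.01, SE 0.33, adjusted p = 0.00496, and 0.0518 under normexp). Among all genes tested, 0.737% were called for PB in WT, 2.13% for PB in KO and 2.76% for KO minus WT under DEN. Under DEN + PB 0 genes of the list were called higher in KO and 3 lower, where 1.76% and 5.85% of all genes were. The 3 lower genes were led by Tspan8, a tetraspanin (-2.05, SE 0.27, adjusted p = 0.000364), and Cd24a, a surface protein of progenitor cells (-1.72, SE 0.26, adjusted p = 0.000904). The other was Epcam, which is also one of the biliary markers, and its call was lost without any 1 of WT DEN + PB 2, WT DEN + PB 3, WT DEN + PB 4 and KO DEN + PB 2 (limma adjusted p from 0.0534 to 0.0665). The Tspan8 and Epcam calls were lost under normexp (adjusted p = 0.535 and 0.790).

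Of 20 imprinted genes, Meg3 and the other oncofetal genes apart, 16 were tested. Rian was the one called higher, with PB in both genotypes and in KO under DEN + PB. Its probe was tested only through the KO DEN + PB arrays, as given above. Sgce fell with PB in KO (log2 change -1.05, SE 0.22, limma adjusted p = 0.0169), and Sgce, Grb10 and Dcn were lower in KO than in WT under DEN + PB (-1.06, -0.60 and -0.60, adjusted p = 0.00692, 0.0172 and 0.0249). Among all genes tested, 0.654% were called higher with PB in WT, and 1.26% higher and 0.872% lower with PB in KO. Under DEN + PB 1.76% were called higher and 5.85% lower in KO. Of the receptors, binding proteins and substrates that act with Igf2, 12 of 14 were tested and 0 were called for PB in either genotype, with 3 in WT and 1 in KO at an unadjusted limma p under 0.05, as were 8.3% and 13.3% of all genes. Igfbp5, a binding protein, was higher in KO than in WT under DEN (2.05, SE 0.31, adjusted p = 0.00236) and under DEN + PB (1.16, SE 0.31, adjusted p = 0.0295), and Igfbp7 was lower in KO under DEN + PB (-0.82, SE 0.16, adjusted p = 0.00679). Of 20 relatives of the oncofetal genes 16 were tested, and the only call was Golm2, the paralogue of Golm1, lower in KO under DEN + PB (-0.84, SE 0.21, adjusted p = 0.0243). In KO minus WT, 1.02% of all genes were called higher under DEN, and 1.76% higher and 5.85% lower under DEN + PB. All calls of imprinted, Igf2 pathway and related genes named here were lost under normexp background correction. Igfbp5 under DEN + PB was lost under 5 of 13 alternatives (also with quantile normalization, in the unscaled series table, with no filter and without moderation) and Golm2 under 4 (also in that table, with no filter and with slide as a fixed block). With the mean over probes Grb10 (-0.25, adjusted p = 0.585) and Sgce for PB in KO (-1.04, adjusted p = 0.0518) were lost, and with no filter Dcn (adjusted p = 0.0602).

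Several of these calls also rested on single arrays. For KO minus WT with PB, Grb10 was not called without WT DEN + PB 2, WT DEN + PB 3 or KO DEN + PB 2 (a log2 change of -0.58, under 1.5-fold, without the first, and limma adjusted p = 0.0572 and 0.0626 without the others), and Dcn without WT DEN + PB 3, WT DEN + PB 4, KO DEN + PB 2 or KO DEN + PB 3 (0.0698 to 0.0770). Golm2 was not called without WT DEN + PB 3, KO DEN + PB 2 or KO DEN + PB 3 (0.0514 to 0.0804), and Igfbp5 without WT DEN + PB 2, WT DEN + PB 4, KO DEN + PB 1 or KO DEN + PB 4 (0.0750 to 0.0825). For PB in KO, Sgce was not called without KO DEN 1 or KO DEN 4 (0.0656 and 0.0575).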

How the data were processed

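Cy3-labelled RNA of 16 livers was hybridised to 1-colour Agilent arrays of the mouse genome. Per the file headers, Feature Extraction 12.0.3.1 wrote the scanner files, and the deposited processed signal is a linear intensity that the authors' software corrected for background, with no scaling between arrays. The deposited intensity table of the series equals the spot means of that signal to within 5e-04 percent and served as an alternative. The normalization the study used before its own test is not given in the sources used here. The study's purpose, per the labels, was to compare the response to PB between genotypes.

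Spots with an outlier mark (71 to 122 of 43379 per array) were dropped, and the rest of each probe averaged (245 probes had 10 spots). The log2 signal minus the 75th percentile of each array was fitted with limma 3.58.1 (lmFit, eBayes, 4 group means, 16 arrays) in R 4.3.3, with Benjamini-Hochberg adjustment over the 24457 probes (59.4%) that a full group of 4 arrays showed well above background. Where every array of a group read a probe below that mark, its change is given as a bound against the higher of its own signal and the lowest signal well above background on each array. The number of arrays limits the precision, and p-values measure the spread between mice of one experiment.

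Transcript records were looked up in a RefSeq table of GRCm38.p6, through which 28223 probes (68.5%) took the symbols of 19096 genes. The array was designed on another build, so the table's coordinates are printed only for the promoter windows, which come from the same assembly, and those were not set against array coordinates. Scd2, Ly6d and H19 had no window. The named genes are the oncofetal genes, at most 4 called genes per further list with the lowest adjusted p, and the 2 genes most like each oncofetal gene detected on all arrays. A gene that this rule names is not reported here. Epcam was named to complete a count. The members and lists were chosen with earlier results of these data known. The normexp alternative (offset 50) used the median spot signal and the local background. On simulated data with 100 probes changed by 1 and 100 by 2 on the log2 scale among 24457, the fit recovered 60% and 92% for PB in WT, 53% and 94% for PB in KO, 55% and 97% for KO minus WT without PB, and 55% and 93% with PB.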

Additional observations from a re-analysis of the deposited data

Results flagged for a closer look

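Among 68 groups of 4 arrays checked, 1 for each probe and group, 3 held an array that stood apart, judged by its gap to the nearest array against the range of the group on the log2 scale. Chance alone marks about 1 in 20 such groups. They were the second Igf2 probe on WT DEN 3, with a signal of 4.59, and the brightest Igf2bp3 probe on WT DEN 3, with 5.11, and on KO DEN + PB 3, with 1.57, the last not well above background.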

How the results depend on the processing

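Of 2416 values recomputed under an alternative or without 1 array, 2192 kept their direction and side of the threshold, 167 fell below it, 2 rose past it and 55 turned in sign, all of the last in values that were not called. The count of oncofetal genes called became 1 for PB in KO under normexp background correction and with only the groups compared, and fell from 3 to 2 for KO minus WT under DEN + PB under normexp. It became 0 for KO minus WT under DEN under normexp background correction, with no filter on dim probes, without moderation, with slide as a fixed block and with the mean over probes. Leaving out 1 array gave 1 to 2 genes for PB in WT, 2 to 3 for PB in KO and 0 to 1 for KO minus WT under DEN. Under normexp 21, 63, 0, 21 and 50 probes were called for PB in WT, PB in KO, their difference, and KO minus WT without and with PB, against 163, 421, 2, 750 and 1648. The normexp alternative adds 50 to each signal, where the 75th percentile of the arrays was 137 to 294. This by itself narrows the log2 changes of dim probes. A call lost there therefore cannot tell a weak change from that narrowing. How much of the loss comes from the added 50 was not tested.

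Signs turned for PB in WT with Gpc3 under normexp (-0.0769) and with Golm1 under normexp (-0.0441), quantile normalization (-0.0151) and slide as a random block (-0.0143), and for PB in KO with Gpc3 in the unscaled series table (-0.19) and with slide fixed (-0.00882). For the difference of the PB effects they turned with Gpc3 under normexp (-0.29) and slide random (-0.0229), Igf2 (-0.11) and Dlk1 (-0.39) under normexp, and Meg3 in the series table (0.29) and with slide random (0.0532). For KO minus WT under DEN they turned under normexp with Gpc3 (-0.37), Igf2 (-0.25), Dlk1 (-0.50) and Golm1 (-0.00869). Under DEN + PB they turned under normexp with Afp (-0.0576), Gpc3 (-0.0847), Igf2 (-0.14) and Dlk1 (-0.11), and in the series table with Afp (-0.30), Gpc3 (-0.0383) and Igf2 (-0.19). The unscaled table moved the median of all probes by 0.10 for PB in WT, -0.30 for PB in KO, -0.34 for KO minus WT under DEN + PB and 0.40 for the difference of the PB effects, and normexp by -0.14 and -0.11 for KO minus WT without and with PB and by -0.10 for that difference.

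Leaving out 1 array gave values on both sides of 0 for PB in WT with Golm1 (-0.0689 to 0.11), Gpc3 (-0.0356 to 0.33) and Afp (-0.0668 to 0.33), for PB in KO with Gpc3 (-0.14 to 0.33), for the difference with Meg3 (-0.42 to 0.32), Dlk1 (-0.31 to 0.38) and Gpc3 (-0.17 to 0.30), for KO minus WT under DEN with Golm1 (-0.12 to 0.24), and under DEN + PB with Afp (-0.16 to 0.20) and Ly6d (-1.15 to 0.0545).

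The replicate numbers of the labels did not pair the arrays (24 pairs of one number, correlation of deviations -0.21 to 0.36, 6 above 0.1, and 3 of 16 arrays most like their own number). With the number as a replicate block the oncofetal genes called were 1, 2, 0, 1 and 3, as without it, and 168, 404, 2, 977 and 1724 probes were called. Signals near background, as for Dlk1, Gpc3, Rian, Dio3 and 3 of the Meg3 probes, limit what a change of these genes can show.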
